A study of Mus musculus with 10 samples.

Results

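Zscan4c, Zscan4d, Zscan4e, Zscan4f, Gm4340, Gm8300 and Dux were followed across diploid and trisomic mouse embryonic stem (ES) cells. The probes were chosen by name: every noncontrol probe of the array that carried the name of 1 of these 7 genes was taken. Of the 7 genes, 6 had a probe and together they had 11 probes, of 55681 noncontrol probes with 34844 names. Zscan4d had no probe under its own name.

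WT was the male ES cell line AB1, diploid, at passages 18 and 20. Ts6 carried 3 copies of chromosome 6 (passages 9 and 18), Ts8 of chromosome 8 (passages 10 and 13), Ts11 of chromosome 11 (passages 8 and 11) and Ts15 of chromosome 15 (passages 11 and 14). The strain of the 4 trisomic lines is given as 129 S7/SvEvBrd, and neither their sex nor their parent line is given, so trisomy, origin and passage cannot be told apart in a difference from WT. Each trisomic group is 1 line. Every group had 2 biological replicates at different passages, the higher passage being replicate 2, and each replicate was hybridised to 1 of 10 1-colour arrays. All cultures grew on irradiated SNL76/7 fibroblast feeder cells, which were depleted by letting them settle before RNA was extracted. The p-values rest on the spread between the 2 cultures of a line, pooled over all groups, and not on a spread between lines. A group whose own arrays lie further apart thus has the same error as the others. On slide 1, WT, Ts6, Ts8 and Ts11 each filled a slide column of their own, and Ts15 was on slide 2, so group and position cannot be told apart. Slide row 1 held the first replicate of each group and slide row 2 the second, so replicate number and row coincide.

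No spot was saturated, and 71.4% to 80.2% of an array's noncontrol spots exceeded the background threshold of the scanner software. All 10 ES cell markers on the list used were above background in every group. Levels are given here relative to the 75th percentile of the array, where a log2 level of 0 lies at that percentile. The summed level of the ES cell markers, in multiples of that percentile, ranged from 182 to 191 on WT arrays, 174 to 180 on Ts6, 162 to 173 on Ts8, 171 to 175 on Ts11 and 174 to 197 on Ts15 arrays. The 11 feeder cell markers summed to 30.0 to 32.9 on WT arrays, 22.9 to 29.7 on Ts6, 24.9 to 29.5 on Ts8, 27.3 to 33.8 on Ts11 and 35.2 to 40.4 on Ts15 arrays, with Lum not above background in any group and Postn not in Ts6. The 6 primitive endoderm markers summed to 5.22 to 5.49 on WT arrays, 4.78 to 5.49 on Ts6, 4.69 to 4.83 on Ts8, 3.77 to 4.11 on Ts11 and 11.5 to 15.3 on Ts15 arrays. The part of these marker levels in the results was not tested.

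In the mouse embryo, Zscan4 genes are transcribed in a burst when the zygotic genome is activated at the 2-cell stage. In ES cell cultures, a small and changing minority of cells passes through a state with the same transcripts, called 2-cell-like, and the Zscan4 genes, which encode SCAN domain zinc finger proteins tied to telomere maintenance, are its usual markers. Dux encodes a double homeobox transcription factor that can switch this programme on, and Gm4340 and Gm8300 are multicopy genes of the same programme. In bulk RNA, fewer 2-cell-like cells and less RNA per such cell cannot be told apart.

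The transcripts listed for each probe on the array name copies of these families that the signal can come from. The probe sequences show which probes share a stretch. The 5 Zscan4 probes are given below with the whole sequence of the first and the first 30 bases of the others.
Zscan4c probe 1: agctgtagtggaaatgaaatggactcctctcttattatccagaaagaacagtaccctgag
Zscan4c probe 2: tacagtgttcttgacagaagcctggcattc
Zscan4c probe 3: atcccaagtcttagggttgcaagttaaatg
Zscan4e probe: aattaccacagatctgactgaagtatctaa
Zscan4f probe: atgttgcaagtaaattgtactgtcccaata
On mm9, the Zscan4c probes lie on chromosome 7 at 11594425 to 11594484 (probe 1), 11595690 to 11595748 (probe 2) and 11595751 to 11595810 (probe 3). The Zscan4e probe lies at 11891736 to 11891795 and the Zscan4f probe at 11987608 to 11987667 of the same chromosome. No mm9 gene annotation was used here, so the exon that holds each probe is not given. No pair of these 5 probes overlaps in sequence, so each reads a stretch of its own. They do not, however, read 5 separate genes. At most 4 transcripts are listed for any probe on the array, and the probes were not aligned to transcripts here. The listed transcripts that matched RefSeq name Zscan4a, Zscan4c and Zscan4d for Zscan4c probe 1. They name Zscan4c alone for probe 2, and Zscan4a and Zscan4c for probe 3. For the Zscan4e probe they name Zscan4b, Zscan4d and Zscan4f, and for the Zscan4f probe Zscan4a, Zscan4c, Zscan4d and Zscan4f. Zscan4d is thus among the transcripts of 3 of these probes. Zscan4c probe 3 also shares an identical run of 53 bases with a probe named Zscan4a. Values for a single Zscan4 gene are therefore uncertain, and the 5 probes are a readout of the cluster.

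The 3 Gm8300 probes lie on chromosome 12 of mm9 at 88858331 to 88858390, 88858368 to 88858426 and 88858902 to 88858961. Probes 1 and 2 share a stretch of 23 bases, shown here because it was the only overlap among all 55 pairs of the 11 probes. Capitals mark the base that differs.
Gm8300 probe 1: catttggcatgagtgtgtTttgt
Gm8300 probe 2: catttggcatgagtgtgtCttgt
Of the 23 bases 22 were identical, and the difference is T19C, counted from the first base of the overlap with probe 1 as reference. In the other pairs the longest shared run was 9 bases. The Gm4340 probe lies on chromosome 10 at 103633507 to 103633566 and shares a run of 51 bases with a probe that carries no gene name. The Dux probes lie on the same chromosome at 57694020 to 57694079 and 57694439 to 57694498 and are shown whole, because they correlated less with each other than any other probes of 1 gene.
Dux probe 1: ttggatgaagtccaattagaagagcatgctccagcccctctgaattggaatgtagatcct
Dux probe 2: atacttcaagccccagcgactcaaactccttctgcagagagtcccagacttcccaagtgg
Dux is named Duxf3 in the RefSeq table (GRCm38.p6), 1 of the transcripts listed for probe 1 matched the locus LOC100504180, and none listed for probe 2 was matched. None of the 11 probes lies on a chromosome that is trisomic in any line.

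RefSeq (GRCm38.p6) gave promoter windows for Zscan4b, Zscan4c, Zscan4d, Zscan4f, Gm4340 and Duxf3. The 250 bases before the start of Zscan4c, Zscan4d and Zscan4f are shown because the values of the cluster moved together. Capitals mark TATAAA, searched on both strands.
Zscan4c: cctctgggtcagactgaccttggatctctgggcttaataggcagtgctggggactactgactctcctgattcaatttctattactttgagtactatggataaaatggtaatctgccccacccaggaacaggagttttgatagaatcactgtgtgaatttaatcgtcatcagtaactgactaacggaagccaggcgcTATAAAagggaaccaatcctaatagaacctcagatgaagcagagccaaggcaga
Zscan4d: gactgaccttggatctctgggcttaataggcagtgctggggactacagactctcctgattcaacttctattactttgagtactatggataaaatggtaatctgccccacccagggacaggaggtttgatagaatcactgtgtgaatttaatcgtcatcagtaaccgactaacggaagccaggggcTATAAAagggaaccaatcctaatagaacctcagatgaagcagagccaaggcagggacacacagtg
Zscan4f: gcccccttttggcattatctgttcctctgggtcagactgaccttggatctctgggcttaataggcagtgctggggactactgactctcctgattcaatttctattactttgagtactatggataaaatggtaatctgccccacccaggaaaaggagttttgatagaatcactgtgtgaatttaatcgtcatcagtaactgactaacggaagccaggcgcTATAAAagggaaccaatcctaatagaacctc
The windows are chr7:11005495-11005744 on the plus strand for Zscan4c, chr7:11166149-11166398 on the minus strand for Zscan4d and chr7:11397665-11397914 on the plus strand for Zscan4f. Aligned without gaps, Zscan4c and Zscan4f were identical at 226 of 227 bases, and the 6 pairs among Zscan4b, Zscan4c, Zscan4d and Zscan4f were 94.7% to 99.6% identical. TATAAA began 31 bases before the start in Zscan4b and Zscan4f, 54 in Zscan4c and 65 in Zscan4d, on the strand of the gene. On that strand it is present in 7.59% of 32851 promoter windows, and on either strand in 12.4%. The windows of Gm4340 and Duxf3 held no TATAAA.

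All 11 probes were well above background on all 10 arrays. In Ts6 every Zscan4 probe was lower than in WT, at 25.9% to 34.0% of the WT level. In Ts11 they were at 40.4% to 54.9%. In Ts8 they were at 117% to 141% and in Ts15 at 79.7% to 92.3%, differences that did not pass the test. Differences were tested with limma across 43056 probes, and a change was called at a Benjamini-Hochberg adjusted p under 0.05. The 4 comparisons with WT share the WT arrays and are not independent of each other.

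The log2 level of Zscan4c probe 1 was 2.81 and 2.65 on the WT arrays (replicates 1 and 2), 0.67 and 0.90 on the Ts6 arrays, 3.08 and 2.85 on those of Ts8, 1.46 and 1.60 on those of Ts11 and 2.60 and 2.44 on those of Ts15. Both Ts6 arrays were below all others, both Ts11 arrays came next, and no group overlapped another. Over all probes, both arrays lay below both WT arrays for 30.7% in Ts6 and 26.9% in Ts11, so such a separation alone is common. Relative to WT this probe fell by 1.95 ± 0.14 in Ts6 (SE, n = 2 arrays a group; limma adjusted p = 0.00079) and by 1.21 ± 0.14 in Ts11 (adjusted p = 0.0057). The difference was 0.23 in Ts8 (95% interval -0.10 to 0.56, adjusted p = 0.35) and -0.21 in Ts15 (-0.54 to 0.11, adjusted p = 0.40).

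Zscan4c probes 2 and 3, which lie about a kilobase further along the mm9 sequence, gave the same order. Probe 2 was at 2.00 and 1.77 on the WT arrays, -0.14 and 0.11 on the Ts6 arrays, 2.41 and 2.36 on those of Ts8, 0.31 and 0.85 on those of Ts11 and 1.49 and 1.63 on those of Ts15. Probe 3 was at 2.47 and 2.43 on the WT arrays, 0.49 and 0.77 on the Ts6 arrays, 2.93 and 2.91 on those of Ts8, 1.06 and 1.59 on those of Ts11 and 2.26 and 2.33 on those of Ts15. Again no groups overlapped, although the Ts11 arrays lay further apart than those of any other line. Both probes fell in Ts6, by 1.90 ± 0.19 and 1.82 ± 0.18 (SE, n = 2 arrays a group; limma adjusted p = 0.0019 and 0.0018). Both fell in Ts11, by 1.31 ± 0.19 and 1.12 ± 0.18 (adjusted p = 0.011 and 0.015).

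Zscan4e, now annotated as a pseudogene in the RefSeq table, gave 2.78 and 2.86 on the WT arrays, 1.03 and 1.19 on the Ts6 arrays, 3.13 and 3.12 on those of Ts8, 1.60 and 2.00 on those of Ts11 and 2.66 and 2.58 on those of Ts15. The Zscan4f probe gave 3.12 and 3.19 on the WT arrays, 1.52 and 1.67 on the Ts6 arrays, 3.48 and 3.39 on those of Ts8, 2.13 and 2.45 on those of Ts11 and 3.06 and 3.02 on those of Ts15. For both, each Ts6 and Ts11 array was below each WT array, an arrangement shared with 30.7% (Ts6) and 26.9% (Ts11) of all probes. The Zscan4e probe fell by 1.71 ± 0.15 in Ts6 and by 1.02 ± 0.15 in Ts11 (SE, n = 2 arrays a group; limma adjusted p = 0.0012 and 0.011). The Zscan4f probe fell by 1.56 ± 0.13 in Ts6 and by 0.86 ± 0.13 in Ts11 (adjusted p = 0.0011 and 0.013).

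Gm4340, whose annotated gene lies on chromosome 10, was at 2.55 and 2.40 on the WT arrays, 0.81 and 0.88 on the Ts6 arrays, 2.97 and 2.70 on those of Ts8, 1.26 and 1.45 on those of Ts11 and 2.52 and 2.42 on those of Ts15. The Ts15 arrays overlapped the WT arrays, and the Ts6 and Ts11 arrays lay below them. Gm4340 fell by 1.63 ± 0.13 in Ts6 (SE, n = 2 arrays a group; limma adjusted p = 0.00095) and by 1.12 ± 0.13 in Ts11 (adjusted p = 0.0064). In Ts15 it was at 99.4% of WT, with a 95% interval of the log2 difference from -0.32 to 0.30.

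**Figure D1:**
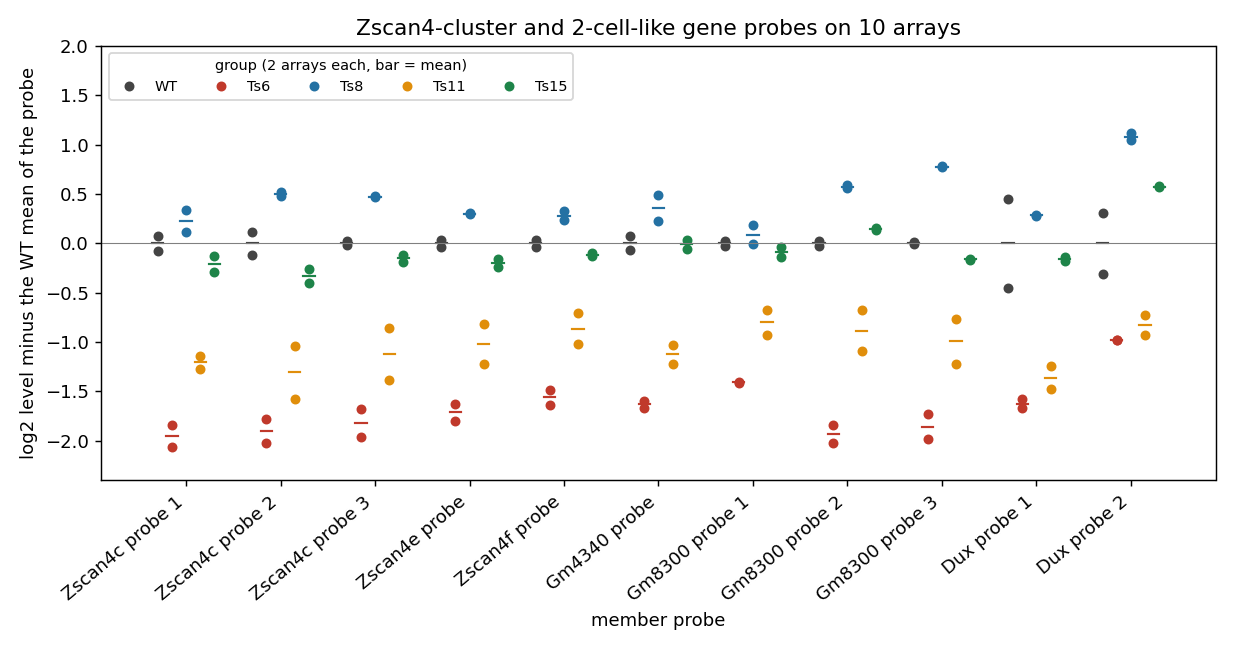
Log2 level of each of the 11 probes on each array, minus the mean of the 2 WT arrays for that probe; points are arrays, short bars are group means, and the y axis is in log2 units. Both Ts6 arrays lie below both WT arrays for all 11 probes, as do both Ts11 arrays (30.7% and 26.9% of all probes), and the WT arrays lie furthest apart for the Dux probes.

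The 3 Gm8300 probes agreed on Ts6 and Ts11 and less so on Ts8 and Ts15. Gm8300 probe 1 was at 2.98 and 2.94 on the WT arrays, 1.55 and 1.56 on the Ts6 arrays, 3.14 and 2.95 on those of Ts8, 2.03 and 2.28 on those of Ts11 and 2.92 and 2.83 on those of Ts15. Probe 2 was at 0.86 and 0.90 on the WT arrays, -1.15 and -0.96 on the Ts6 arrays, 1.44 and 1.47 on those of Ts8, -0.21 and 0.20 on those of Ts11 and 1.03 and 1.02 on those of Ts15. Probe 3 was at -1.22 and -1.24 on the WT arrays, -3.21 and -2.96 on the Ts6 arrays, -0.45 and -0.46 on those of Ts8, -2.45 and -1.99 on those of Ts11 and -1.40 and -1.38 on those of Ts15. Ts8 overlapped WT for probe 1 and lay above WT for probes 2 and 3, and Ts15 lay below WT for probes 1 and 3 and above it for probe 2. In Ts6 the probes fell by 1.41 ± 0.13, 1.93 ± 0.15 and 1.86 ± 0.16 (SE, n = 2 arrays a group; limma adjusted p = 0.0013, 0.00081 and 0.0012). In Ts11 they fell by 0.80 ± 0.13, 0.88 ± 0.15 and 0.99 ± 0.16 (adjusted p = 0.014, 0.017 and 0.016). In Ts8 the differences were 0.09, 0.58 and 0.78, with adjusted p = 0.71, 0.078 and 0.052, so Gm8300 probe 3, at 171% of WT, did not pass the threshold.

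Dux, which encodes the transcription factor of the programme, was read by dim probes. The signal of Dux probe 1 was 103 on Ts6 replicate 1, where the lowest signal called well above background was 78.0, and 465 on WT replicate 2. Dux probe 1 had log2 levels of -4.16 and -3.26 on the WT arrays, -5.38 and -5.29 on the Ts6 arrays, -3.42 and -3.43 on those of Ts8, -4.95 and -5.19 on those of Ts11 and -3.89 and -3.84 on those of Ts15. Dux probe 2 had -2.16 and -2.78 on the WT arrays, -3.45 and -3.46 on the Ts6 arrays, -1.43 and -1.36 on those of Ts8, -3.40 and -3.20 on those of Ts11 and -1.91 and -1.89 on those of Ts15. The WT arrays lay further apart than those of any trisomic line for both Dux probes, and in opposite order. Each Ts6 and Ts11 array was below each WT array, as for 30.7% and 26.9% of all probes. Dux probe 1 fell by 1.63 ± 0.26 in Ts6 and by 1.36 ± 0.26 in Ts11 (SE, n = 2 arrays a group; limma adjusted p = 0.010 and 0.024). Dux probe 2 fell by 0.98 ± 0.19 in Ts6 and by 0.83 ± 0.19 in Ts11 (adjusted p = 0.022 and 0.045). In Ts8 probe 2 rose by 1.08 ± 0.19, to 211% of WT (adjusted p = 0.038), while probe 1 differed by 0.28 (95% interval -0.31 to 0.88, adjusted p = 0.53). In Ts15 Dux probe 2 differed by 0.57 (0.13 to 1.02, adjusted p = 0.12) and probe 1 by -0.16 (-0.76 to 0.43, adjusted p = 0.75).

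**Figure D2:**
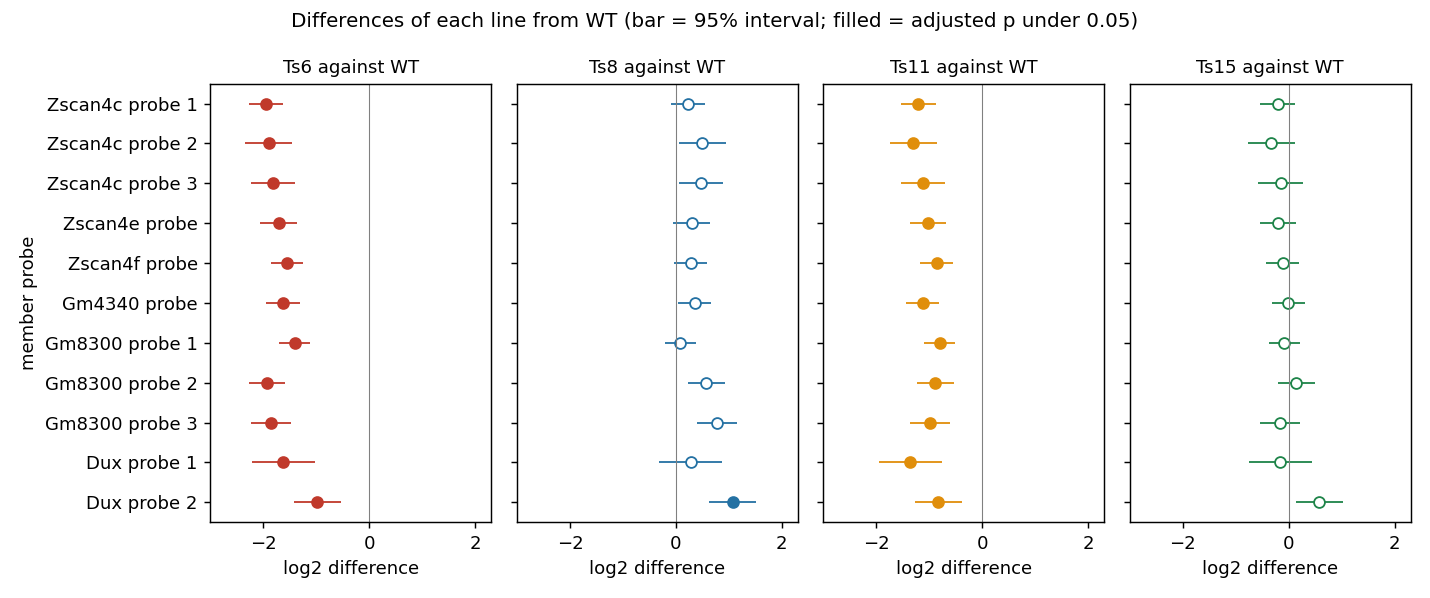
Log2 difference of each trisomic line from WT for the 11 probes, with 95% intervals from the limma fit; filled points have an adjusted p under 0.05. All 11 probes were called lower in Ts6 and in Ts11, Dux probe 2 was called higher in Ts8, and no probe was called in Ts15.

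In Ts6 all 11 probes were called lower than in WT, where 4.34% of all probes tested were called lower and 8.57% were called in either direction. The median difference of the 11 probes was -1.71 (range -1.95 to -0.98), against -0.01 over all probes. Of the 11, 10 fell more than 2-fold, as did 3.61% of all probes. In Ts11 all 11 were called lower as well, where 3.54% of all probes were called lower and 6.96% in either direction. The median difference there was -1.02 (range -1.36 to -0.80). The Ts11 calls rest on few arrays: 5 probes were called without WT replicate 1, 5 without WT replicate 2 and 7 without Ts11 replicate 1. None was called when only the WT and Ts11 arrays entered the fit, although all 11 then had an unadjusted p under 0.05.

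In Ts8 all 11 differences from WT were above 0, with a median of 0.36 (range 0.09 to 1.08), and in 9 probes both Ts8 arrays lay above both WT arrays. This arrangement was found in 29.7% of all probes. Only Dux probe 2 was called, where 1.61% of all probes were called higher and 2.86% in either direction, and among the fits that left out 1 array it was called only in that without WT replicate 1. In Ts15 none of the 11 was called by limma, 1 had an unadjusted p under 0.05, and 7.15% of all probes were called. The Ts15 median was -0.15 (range -0.33 to 0.57), with 9 probes below 0 and 2 above, and in 7 probes both Ts15 arrays lay below both WT arrays, as in 32.6% of all probes.

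Passage was matched in 1 pair of arrays, Ts6 replicate 2 and WT replicate 1, both at passage 18. All 11 probes were lower on the Ts6 array of this pair, by log2 differences from -1.91 (Zscan4c probe 1) to -1.13 (Dux probe 1), with no replicate and thus no test. The higher passage array was the higher one for 10 of 11 probes in Ts6 and for 10 of 11 in Ts11, by at most 0.28 and 0.54. In WT it was higher for 4 of 11 probes, in Ts8 for 2 and in Ts15 for 5. The share of all probes with such an order was not counted. Because the 11 probes correlate with each other, these counts are not 11 separate readings.

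The lines were also compared with each other. All 11 probes were lower in Ts6 than in Ts8 (median -2.06; 6.91% of all probes were called lower) and lower in Ts6 than in Ts15 (median -1.57; 6.87%). All 11 were higher in Ts8 than in Ts11 (median 1.48; 4.09% of all probes were called higher) and lower in Ts11 than in Ts15 (median -0.98; 4.84% lower). Ts6 and Ts11, the low lines, differed less. Of the 11 probes 6 were called lower in Ts6 than in Ts11 (median -0.69, where 3.05% of all probes were called lower). The 6 were Zscan4c probe 1, the Zscan4e and Zscan4f probes and the 3 Gm8300 probes. Dux probe 1, at -0.26 (95% interval -0.86 to 0.33), and Dux probe 2, at -0.16 (-0.60 to 0.29), did not differ beyond their error between Ts6 and Ts11. Between Ts8 and Ts15, 2 probes were called higher in Ts8 (median 0.44; 12.1% of all probes were called higher), Zscan4c probe 2 at 0.83 and Gm8300 probe 3 at 0.94. Of the 66 tests of 11 probes in 6 pairs of lines 52 were called, and 30 when only the arrays of the pair entered the fit.

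The order of the group means was Ts6, Ts11, Ts15, WT and Ts8, from lowest to highest, in 9 of the 11 probes. In Gm8300 probe 2 and Dux probe 2 the places of WT and Ts15 were exchanged, and with arrays scaled to their median Gm4340 and Gm8300 probe 1 also had Ts15 above WT. Neighbouring groups with overlapping arrays were Ts15 and WT for Gm4340 and Dux probe 1, and WT and Ts8 for Gm8300 probe 1 and Dux probe 1.

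Probe against probe, the Pearson correlation over the 10 arrays was 0.980 to 0.998 among the 5 Zscan4 probes and 0.959 to 0.982 among the Gm8300 probes. It was 0.980 to 0.993 between the Zscan4 probes and Gm4340, 0.964 to 0.992 between the Zscan4 and Gm8300 probes, and 0.887 to 0.937 between the Zscan4 and Dux probes. The Dux probes correlated at 0.840 with each other. The arrays form 5 groups at separate levels and share their scaling, so these coefficients mostly describe the order of the groups.

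A list of 53 other gene names of the 2-cell-like programme was used, some of them synonyms. Of these names 37 had a probe on the array, with 53 probes in all, of which 49, for 36 genes, passed the filter on dim probes. In Ts6, 36 of the 49 probes (27 genes) were called lower and none higher, with a median of -1.41, where 4.34% of all probes were called lower; without Ts6 replicate 1 the count was 23. In Ts11, 22 (16 genes) were called lower and none higher, with a median of -0.72, where 3.54% of all probes were called lower. This Ts11 count was 8 without WT replicate 1, 5 without WT replicate 2, 10 without Ts11 replicate 1, 14 with no filter on dim probes and 0 with only the WT and Ts11 arrays in the fit. In Ts8, 2 were called higher and none lower (median 0.29; 1.61% of all probes were called higher), and in Ts15, where 2.09% of all probes were called higher, 3 were called higher and none lower (median 0.21). Whichever array was left out, these counts were 0 to 1 and 0 to 2. Many of these genes belong to multicopy families, so their probes are not independent readings. Zscan4a also overlaps the followed probes. A Zscan4a probe shares a run of 53 bases with Zscan4c probe 3 and correlated with it at 0.999 over the 10 arrays.

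In Ts6 the list genes described are Tdpoz3, Gm2016, B020004J07Rik and Arg2, which were measured in both groups, and Gm13078 and Tdpoz4, for which the difference has only a bound and no rank. Gm13078 and its relatives B020004J07Rik, BC080695, Gm12794 and Gm13043 are Prame-like genes, and the Tdpoz genes encode proteins with TRAF and POZ domains. A Gm13078 probe was not well above background on the Ts6 arrays, which puts it at least 2.14-fold lower than in WT (limma adjusted p = 0.0013), and another Gm13078 probe that was above background on all arrays fell by 1.35 ± 0.13 (SE, n = 2 arrays a group; adjusted p = 0.0015). Tdpoz4, also not well above background in Ts6, was at least 3.70-fold lower (adjusted p = 0.0097). Tdpoz4 and the dim Gm13078 probe passed the filter only through other groups. Their p-values test the fitted difference, which rests on signal near background in Ts6, and not the bound. Both are included in the count of probes called lower. Tdpoz3 fell by 2.33 ± 0.34, Gm2016 by 2.02 ± 0.20, B020004J07Rik by 1.99 ± 0.18, and Arg2, which encodes an arginase of the mitochondrion, by 1.98 ± 0.21 (adjusted p = 0.0078, 0.0019, 0.0012 and 0.0022). Another Gm2016 probe differed from WT by -1.35 in Ts6. Arg2 is a single-copy gene, not a member of a repeated cluster.

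In Ts11 Tdpoz4, Zscan4a, Gm2022, Usp17lb and Usp17lc were measured in both groups. A Gm13078 probe that was not well above background in Ts11 has only a bound and no rank. It was at least 2.67-fold lower (limma adjusted p = 0.0088 for the fitted difference, not the bound). Tdpoz4, above background on all Ts11 arrays, fell by 1.72 ± 0.37 (SE, n = 2 arrays a group; adjusted p = 0.036). Zscan4a, a transcribed pseudogene of the cluster in the RefSeq table, fell by 1.34 ± 0.17 and Gm2022 by 1.29 ± 0.12 (adjusted p = 0.0071 and 0.0038). Another Zscan4a probe differed from WT by -1.19 in Ts11. Usp17lb and Usp17lc, deubiquitinase genes of the Dub family that the array names Dub1a and Usp17l5, fell by 1.15 ± 0.22 and 1.12 ± 0.14 (adjusted p = 0.024 and 0.0076).

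Gm13078 was the only list gene called higher in both Ts8 and Ts15. A gene called in only 1 of these lines is not thereby shown to differ between them. The bright Gm13078 probe rose by 0.76 ± 0.13 in Ts8 and by 0.62 ± 0.13 in Ts15 (SE, n = 2 arrays a group; limma adjusted p = 0.034 and 0.030), while the other Gm13078 probes were not called in either. Spz1, a basic helix-loop-helix zipper gene of the testis, rose by 1.83 ± 0.27 in Ts8 (adjusted p = 0.026). In Ts15, Rfpl4 rose by 0.84 ± 0.20 (adjusted p = 0.048) and Rfpl4b by 2.55 ± 0.57 (adjusted p = 0.041), where the Rfpl4b probe was above background on 1 of the 2 WT arrays.

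Some list members did not follow. In Ts6, Cml2, on chromosome 6, was at 0.81 (limma adjusted p = 0.088), Gm8994, also on chromosome 6, at -0.28, and a bright probe of Usp17la, named Dub1 on the array, at 0.02 while another Usp17la probe was at -1.37. The 3 Sp110 probes gave -1.56, -0.27 and 0.02, of which the first was called, and the 2 D5Ertd577e probes -1.74 and -0.04, of which the first was called.

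**Figure D3:**
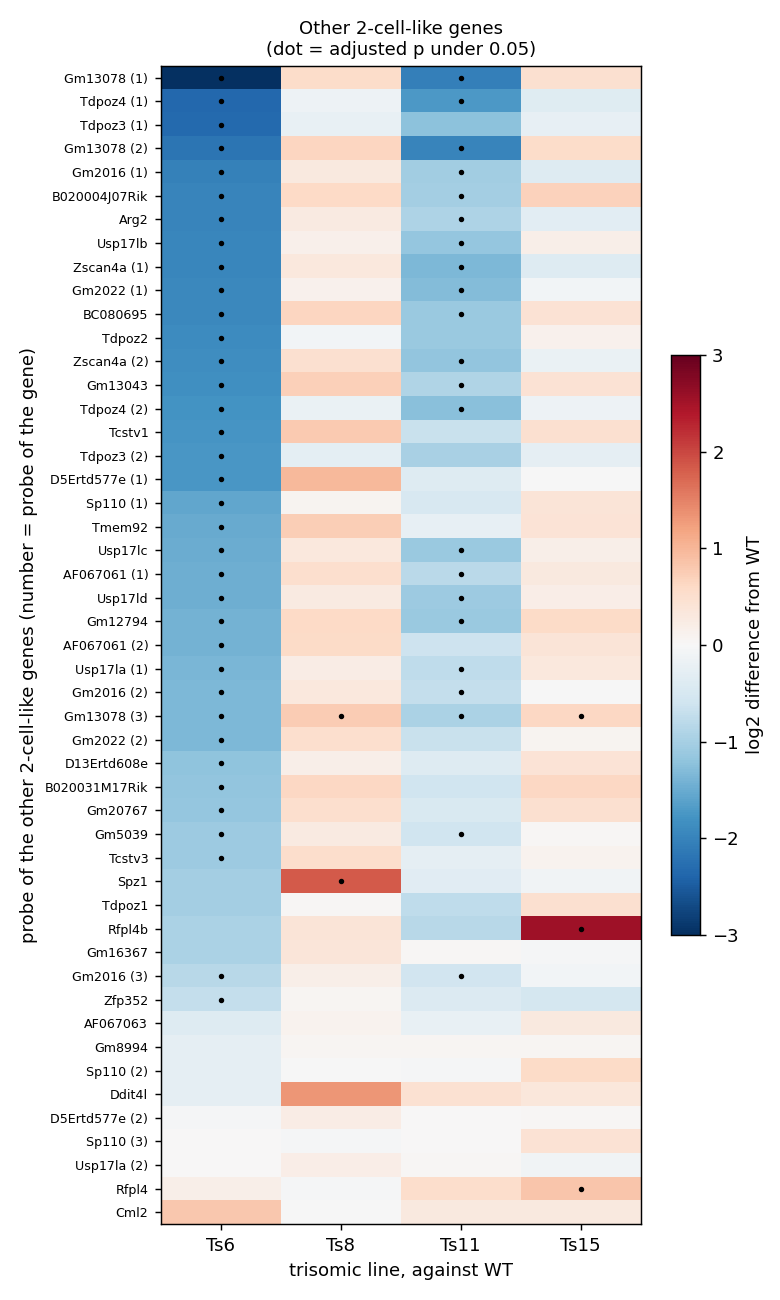
Log2 difference from WT of 49 probes of other 2-cell-like genes in the 4 trisomic lines (colour, log2 units), ordered by the difference in Ts6; a dot marks an adjusted p under 0.05. Dots fill 36 cells in the Ts6 column and 22 in the Ts11 column, against 2 in Ts8 and 3 in Ts15.

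Genes known to act on this programme were read by 50 probes, all tested. The 5 activators besides Dux (Dppa2, Dppa4, Nelfa, Tbx3 and Trp53; 8 probes) had no called probe in any line against WT. Their unadjusted p was under 0.05 for 1 probe in Ts8 and 1 in Ts11 of these comparisons and for none in Ts6 and Ts15. Dppa2 and Dppa4, DNA-binding proteins that act upstream of Dux, had differences from WT between -0.38 and 0.33 over 5 probes and 4 lines.

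The 25 repressors (42 probes) include the chromatin regulators Trim28, Setdb1, Kdm1a, Chaf1a and Dnmt1. Against WT, 1 probe of them was called in Ts6, none in Ts8, 1 in Ts11 and 2 in Ts15, where 8.57%, 2.86%, 6.96% and 7.15% of all probes were called. Each of these shares of 42 probes is below that of all probes. Uhrf1, which guides maintenance DNA methylation, rose by 0.64 in Ts6 on 1 probe (limma adjusted p = 0.029) and was at 0.01 on the other. Lin28a, an RNA-binding protein of pluripotent cells, fell by 0.54 in Ts11 (adjusted p = 0.034). In Ts15, Ring1, a subunit of Polycomb repressive complexes, fell by 0.57 (adjusted p = 0.027). Of 6 Sumo2 probes, 1 was not above background on either Ts15 array and was at least 1.67-fold lower. Its adjusted p = 0.026 is that of the fitted difference, not the bound. The other 5 had log2 differences between -0.17 and 0.11. These 4 calls were 0 to 5 when 1 array was left out and 0 with no filter on dim probes or with only the arrays compared. Over the 50 regulator probes the median difference was 0.01 for Ts6, 0.06 for Ts8, -0.02 for Ts11 and 0.05 for Ts15.

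Between the lines, 29 of 300 tests of regulator probes were called, 23 of them in comparisons with Ts15. Of the 50 probes, 2 were called between Ts6 and Ts8 (13.1% of all probes), 2 between Ts6 and Ts11 (6.53%), 8 between Ts6 and Ts15 (17.6%), 2 between Ts8 and Ts11 (7.17%), 10 between Ts8 and Ts15 (16.9%) and 5 between Ts11 and Ts15 (13.8%), counts near or below the share of all probes. Among the activators, Tbx3, a T-box factor, was lower in Ts8 than in Ts11 by a log2 difference of -0.74, than in Ts15 by -0.56 and than in Ts6, which was 0.70 above it (limma adjusted p = 0.025, 0.038 and 0.021). A Dppa4 probe was higher in Ts6 than in Ts11 by 0.54 (adjusted p = 0.044). The Uhrf1 probe that rose in Ts6 was also higher there than in Ts8, Ts11 and Ts15, by 0.73, 0.71 and 0.59 (adjusted p = 0.015, 0.028 and 0.025). Lin28a was lower in Ts11 than in Ts15 by -0.52 and 0.50 higher in Ts8 than in Ts11 (adjusted p = 0.026 and 0.042). The other called repressors, Trim28, Ehmt2, Sumo2, Chaf1b, L3mbtl2, Ring1, Smchd1, Mga and Zmym2, were called in comparisons with Ts15.

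**Figure D4:**
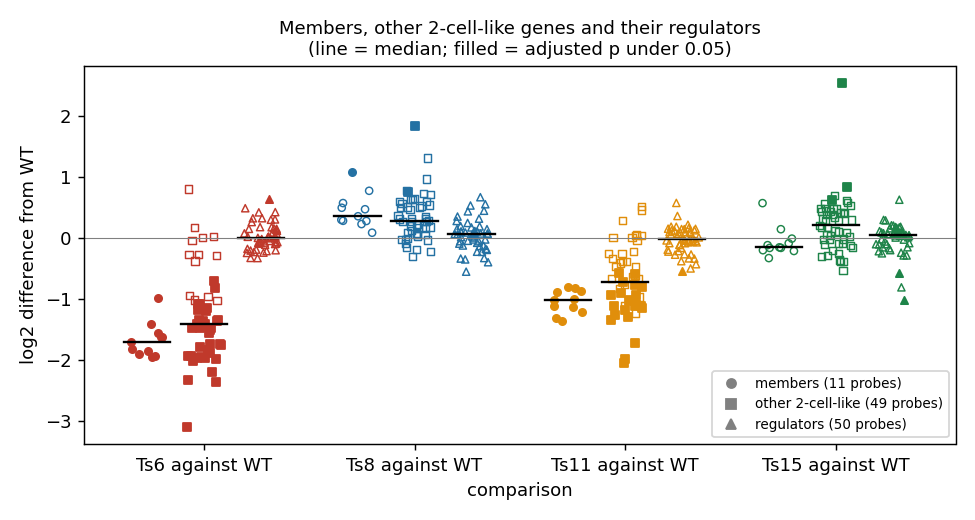
Log2 difference from WT of each probe of the 11 followed here (circles), of 49 probes of other 2-cell-like genes (squares) and of 50 probes of regulators (triangles), by trisomic line; filled symbols have an adjusted p under 0.05 and black lines are medians. The medians of the circles and squares are -1.71 and -1.41 in Ts6 and -1.02 and -0.72 in Ts11, while the regulator medians are 0.01 and -0.02.

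Probes across the array were then ranked by their likeness to the mean centred profile of the 5 Zscan4 probes, by Pearson correlation over the 10 arrays, among 3565 probes that were above background on all arrays and had an SD of at least 0.5. The 10 gene names most like it were Zscan4e (0.998), Zscan4c, Zscan4a and Zscan4f, which are part of the profile or of the same cluster, a lincRNA of chromosome 12 (0.996; mm9 probe at 89488679 to 89488738), Gm428 (0.994), BB287469, Gm2016 and Gm11757 (each 0.993), and AK139836, a transcript cloned from 2-cell embryos (0.993). Gm428 differed from WT by -2.65 in Ts6 and -1.68 in Ts11, and Gm11757 by -2.94 and -1.78, larger differences than for any of the 11 probes. Of the 3565 probes, 182 (155 names) correlated above 0.95: 9 were among the 11 followed here, 17 were on the list of other 2-cell-like genes and 156 were neither. The lowest correlations were those of 1700019B21Rik (-0.985), a lincRNA of chromosome 4 (-0.980), Zc3hav1 (-0.963) and 1700049E22Rik (-0.962), both on chromosome 6, and Cox7b2 (-0.954). Since the groups lie at separate levels, a gene that follows the order of the groups for any reason ranks high by this measure.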

How the data were processed

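Intensity values were deposited as 1-colour scanner output of 10 arrays. Per the file headers, the scanner software was Agilent Feature Extraction 10.7.3.1, which detrended the signals (spatial and multiplicative) and put surrogates in for dim spots; probes are placed on mm9. Normalization between arrays is not given in the sources used here. The authors' series table holds log2 values whose centring is not stated; it served as an alternative only. The file of Ts15 replicate 2 holds values in 3 significant digits and 58 altered gene names, so names came from WT replicate 1.

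The processed signal was taken to log2 and the 75th percentile of each array subtracted. Of 55681 noncontrol probes, 176 were dropped for an outlier spot; 43056 of the rest were well above background on each array of 1 group or more and were tested. Replicate spots were averaged. Of 28390 probes with a RefSeq accession, 26762 matched the reference table (GRCm38.p6) and 2878 names changed. limma 3.58.1 (R 4.3.3) fitted 1 mean per group with 5 residual and 2.63 prior degrees of freedom; p-values were two-sided and Benjamini-Hochberg adjusted within each comparison. The fit was tested on simulated data. A fold against a group not well above background is a bound, with the dim side set to the higher of the probe's own signal and the lowest signal called well above background on each array. The p-value of such a probe tests the fitted difference, not the bound. Summaries were made in Python 3.11.15 (with pandas 2.3.3 and numpy 2.4.6) and drawn with matplotlib 3.10.9.

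The genes, lists and tests were chosen with earlier results of these data known. All followed probes, the 6 list genes with the largest called difference per line (fitted value, which is no rank where a group was not above background), all regulators called against WT or between lines, and the 10 most and 5 least alike gene names are named; other list genes are named as exceptions after their values were seen. Alternatives were normexp background correction (offset 50), quantile normalization, the deposited log2 table, no filter, only the arrays compared, slide 1 alone, 1 probe per gene, a replicate block, leaving out each array and median scaling.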

Additional observations from a re-analysis of the deposited data

Results flagged for a closer look

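The trisomic lines differed from each other under the same contrast with WT, by limma tests of the difference itself. Of the 11 probes of Zscan4c, Zscan4e, Zscan4f, Gm4340, Gm8300 and Dux, 11 were called between Ts6 and Ts8, 11 between Ts6 and Ts15, 11 between Ts8 and Ts11, and 11 between Ts11 and Ts15, where 6.91%, 6.87%, 4.09% and 4.84% of all probes were called in the same direction. Between Ts6 and Ts11, 6 of the 11 were called (3.05% of all probes). Between Ts8 and Ts15, 2 of the 11 were called, near the 12.1% of all probes. Each line is 1 line on its own part of a slide, so line and position cannot be told apart.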

How the results depend on the processing

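The 11 probes called lower in Ts6 stayed at 9 to 11 with 1 array left out, and 6 of 6 genes were called with 1 probe per gene. The 11 called in Ts11 came to 5 to 10 with 1 array left out, 0 with only the arrays compared and 6 of 6 with 1 probe per gene. Quantile normalization, normexp, no filter, median scaling, the deposited log2 table and slide 1 alone each took the Ts11 call from 1 of the 11 probes. The 1 called in Ts8 came to 3 with normexp, to 0 with no filter, only the arrays compared, slide 1 only or median scaling, and to 0 or 1 with 1 array left out; Ts15 came to 0 or 1. The 52 calls between lines came to 30 with only the arrays compared, 28 of 36 with 1 probe per gene and 39 to 51 with 1 array left out. For the other 2-cell-like genes, the 36 calls in Ts6 came to 23 with 1 probe per gene and 23 to 37 with 1 array left out. The 22 in Ts11 came to 14 with no filter, 0 with only the arrays compared and 5 to 23 with 1 array left out. The 2 in Ts8 came to 0 with no filter, only the arrays compared or slide 1 only, and 0 to 1 with 1 array left out. The 3 in Ts15 came to 0 with no filter or only the arrays compared, 7 with median scaling and 0 to 2 with 1 array left out. The 4 regulator calls came to 0 with no filter or only the arrays compared, 2 with 1 probe per gene and 0 to 5 with 1 array left out. Median scaling was chosen after the data were seen and moved every Ts15 difference up by 0.10. Differences near 0 changed sign: Gm8300 probe 1 in Ts8 ranged from -0.0064 (without Ts8 replicate 1) to 0.184 with 1 array left out, and was 0.020 in Ts15 with median scaling. Gm4340 in Ts15 was 0.038 with normexp and 0.096 with median scaling, and -0.0803 to 0.064 (without WT replicate 1) with 1 array left out. Dux probe 1 ranged from -0.164 (without WT replicate 1) to 0.732 in Ts8 and from -0.608 to 0.288 (without WT replicate 2) in Ts15. Apart from the fits with fewer arrays or 1 probe per gene, the cause was not tested. Same-numbered replicates did not deviate together in every pair of groups (r from -0.0926 to 0.378), and the numbers were not taken to pair the samples; the number also goes with slide row and with the higher passage. With a replicate block the calls were 11 in Ts6, 0 in Ts8, 10 in Ts11, 0 in Ts15 and 53 between lines, and 37, 2, 21 and 1 for the other 2-cell-like genes, with 4 for regulators. Slide 1 alone gave no Ts15 value. The pooled counts between lines and for regulators include Ts15 and were therefore not made for it. Precision is limited by 2 arrays per group, and by dim signal for Dux, Gm13078 and Tdpoz4.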

Other observations

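The 182 probes most like the Zscan4 profile (r above 0.95 over 10 arrays) included probes that made the profile or belong to the listed genes. All followed and listed 2-cell-like genes were then left out by gene name. Probes of the same stretches under other names or none were kept. Examples are BB287469 and, between the Zscan4c and Zscan4e probes on chromosome 7, a probe without a gene name (r 0.992). Among 3466 probes placed on a numbered or sex chromosome, 144 then remained above 0.95. Of these, chromosome 12 held 22 (15.3%, against 3.98% of the probes compared), chromosome 5 held 20 (13.9%, against 5.51%) and chromosome 7 held 20 (13.9%, against 7.56%). On chromosome 12, 16 of the 22 started between 88 and 90 Mb of mm9, BB287469 and the most alike lincRNA among them. The same stretch holds Gm8300 and Gm2016, which were left out by name. How many of all compared probes start there was not counted, so the 16 cannot be read as a concentration. These counts were made after the values were seen and were not tested.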
